A study of Mus musculus with 12 samples.

Results

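The question here was whether the effect of losing Setd2 (named Hypb in the labels) on yolk sac gene expression differed between embryonic day 9.0 (E9.0) and E10.5. All 12 arrays of the series were used, and 34 of 18193 genes (0.187%) had a knockout effect that differed between the stages. They held 12 of 44 measured genes of the interferon response list, with differences above 0, against 0.104% of all genes. The median effect of this list was -0.018 at E9.0 and 0.86 at E10.5. They also held 4 of 20 measured genes of the sterol synthesis list, with differences below 0, against 0.0824% of all genes. The median effect of that list was 0.488 at E9.0 and -0.28 at E10.5. The lists were chosen with earlier results of these data known. The 15 genes with a difference below 0, Alb among them, rose between the stages in the wild type. Each rise passed the threshold, as did rises of 13.4% of all genes. At E10.5, 12 of the 15 were lower in the knockout past the threshold, against 3.16% of all genes. The same arrays chose these genes, so both counts follow in large part from the choice.

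RNA came from mouse yolk sacs of strain 129Sv/C57BL/6, wild type (Hypb+/+) or knockout (Hypb-/-), with 3 arrays for each of the 4 groups of genotype and stage. The groups were E9.0 wild type, E9.0 knockout, E10.5 wild type and E10.5 knockout. Each array was made from a pool of 4 yolk sacs of 1 genotype, so spread between single embryos is averaged within a pool. The design text calls the 3 arrays of a group biological repeats, and it describes the mutants as lacking severe visible defects at E9.0 and as close to death at E10.5. The labels give no litter, no detail of the deleted sequence and no separation of cell types.

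The yolk sac is the membrane that surrounds the early embryo. Its outer visceral endoderm absorbs and secretes nutrients and plasma proteins before the liver does, and its inner mesoderm makes the first red blood cells, macrophages and vessels. Setd2 trimethylates histone H3 at lysine 36 in the wake of elongating RNA polymerase II. Interferon response genes are switched on when interferons reach their receptor or when sensors meet foreign or misplaced nucleic acid, through STAT and IRF proteins that bind a GAAA-rich promoter element. Sterol synthesis genes are switched on together by the factor SREBP2 when membrane cholesterol is low, and Insig1 protein holds that factor back when cholesterol is high.

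Values are the deposited RMA values, which are on the log2 scale, and the knockout effect at a stage is the mean of the 3 knockout arrays minus the mean of the 3 wild type arrays. The difference between stages is the E10.5 effect minus the E9.0 effect. It is above 0 where the knockout stood relatively higher at E10.5. Tests were made with limma across all genes, with a threshold of 0.05 on the Benjamini-Hochberg adjusted p, and the median standard error (SE) was 0.178 for a difference and 0.126 for an effect at 1 stage. An effect is said to turn where its signs at the stages were opposite, each with an unadjusted p under 0.05. Otherwise it grew or faded according to the stage at which it was larger.

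The targeted gene, Setd2, separated the genotypes fully at both stages. At E9.0 it read 7.54, 7.99 and 7.53 on the knockout arrays and 9.08, 9.03 and 8.83 on the wild type arrays. At E10.5 the knockout values were 7.77, 7.81 and 8.07 and the wild type values 8.77, 8.70 and 8.66. The effect was -1.29 (adjusted p = 0.00207) and then -0.83 (adjusted p = 0.00294), and the difference of 0.47 (SE 0.19) did not pass the threshold (adjusted p = 0.498). The labels do not say whether the probe set lies in the deleted sequence. The 8 visceral endoderm markers (Afp, Ttr, Apoa1, Apob, Cubn, Lrp2, Amn and Hnf4a) averaged between 12.53 and 12.83 on every array, and the median gene had a mean of 6.52. Spike controls set replicate 3 apart at both stages and in both genotypes: BioC minus BioB was -0.10 and -0.02 there at E9.0 against 1.46 to 1.52 on the other 4 arrays, and the dap 3' minus 5' difference was 1.87 and 1.85 there at E10.5 against 1.23 to 1.44. Results are therefore also given within replicates 1 and 2 and for replicate 3 alone, where 1 array stands against 1 and no test exists.

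Promoters of some called interferon genes are shown here because the interferon genes moved together. RefSeq promoters (GRCm38.p6, trimmed to the 250 bases before the transcription start) were searched on both strands for the core of the interferon-stimulated response element, which is a pair of GAAA with any 2 bases between them. Capitals mark each match, read here as its reverse complement. Ifit3 lies at chr19:34583279-34583528 on the plus strand, Ifit1 at chr19:34640639-34640888 on the plus strand, Rsad2 at chr12:26456453-26456702 on the minus strand and Gbp7 at chr3:142530086-142530335 on the plus strand. The fifth promoter, of Ifitm3 at chr7:141010745-141010994 on the minus strand, holds no match. The promoter of Oasl2, the gene with the largest difference of the list, is not printed and also holds no match.
Ifit3: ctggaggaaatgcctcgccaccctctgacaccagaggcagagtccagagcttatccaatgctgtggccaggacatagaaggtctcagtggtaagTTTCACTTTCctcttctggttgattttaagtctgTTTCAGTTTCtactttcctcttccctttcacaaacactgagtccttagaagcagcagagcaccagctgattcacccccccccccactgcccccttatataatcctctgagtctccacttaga
Ifit1: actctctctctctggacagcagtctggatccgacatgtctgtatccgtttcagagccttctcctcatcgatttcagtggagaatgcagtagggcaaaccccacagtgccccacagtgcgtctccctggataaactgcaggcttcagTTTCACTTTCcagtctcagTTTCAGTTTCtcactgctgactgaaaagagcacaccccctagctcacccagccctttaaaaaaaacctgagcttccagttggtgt
Rsad2: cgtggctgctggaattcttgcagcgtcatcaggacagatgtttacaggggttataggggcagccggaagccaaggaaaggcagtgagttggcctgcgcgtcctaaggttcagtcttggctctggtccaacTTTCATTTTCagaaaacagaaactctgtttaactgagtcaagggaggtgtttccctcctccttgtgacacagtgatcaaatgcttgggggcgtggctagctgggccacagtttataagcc
Gbp7: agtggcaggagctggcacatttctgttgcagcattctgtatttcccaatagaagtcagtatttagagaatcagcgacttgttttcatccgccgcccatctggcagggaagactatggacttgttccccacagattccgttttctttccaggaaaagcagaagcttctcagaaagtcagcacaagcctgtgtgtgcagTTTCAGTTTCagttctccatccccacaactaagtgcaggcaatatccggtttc
Ifitm3: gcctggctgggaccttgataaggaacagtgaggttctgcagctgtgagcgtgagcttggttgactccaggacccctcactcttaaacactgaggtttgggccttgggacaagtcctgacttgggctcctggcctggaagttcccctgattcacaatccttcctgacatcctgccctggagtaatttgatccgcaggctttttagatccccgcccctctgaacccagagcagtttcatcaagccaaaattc
Matches lay 156 and 122 bases before the start in Ifit3, 104 and 85 in Ifit1, 120 in Rsad2 and 53 in Gbp7, counted to the first base of the match. Of the 15 genes whose effect grew above 0, 12 had a promoter in the table and 6 of those (50%) held the element: the 4 above with Gbp2 and Gbp3. Over all 27025 genes with a promoter the share was 3.46%. In the whole interferon response list, called or not, 32 genes had a promoter and 13 of those (40.6%) held the element. None of the 7 promoters of genes whose effect grew below 0 and none of the 8 of genes that turned held it. A match is a stretch of letters and not a measured binding site.

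Few genes had a knockout effect that was shown to differ between stages. Of the 34 genes past the threshold, 19 had a difference above 0 (0.104% of all genes) and 15 below 0 (0.0824%). The effect grew for 25 of them and turned for 9, and 0 faded. At an unadjusted p under 0.05 there were 1510 genes (8.3%), of which 1077 grew, 374 faded and 59 turned. The difference was at least 2-fold for 30 of the 34. All 34 had E10.5 arrays that did not overlap between the genotypes, as did 22.8% of all genes. At E9.0 the genotypes did not overlap for 17 of them, against 18% of all genes. The test that chose the 34 used these same arrays, so the fold sizes and such separation follow in large part from the choice.

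**Figure D1:**
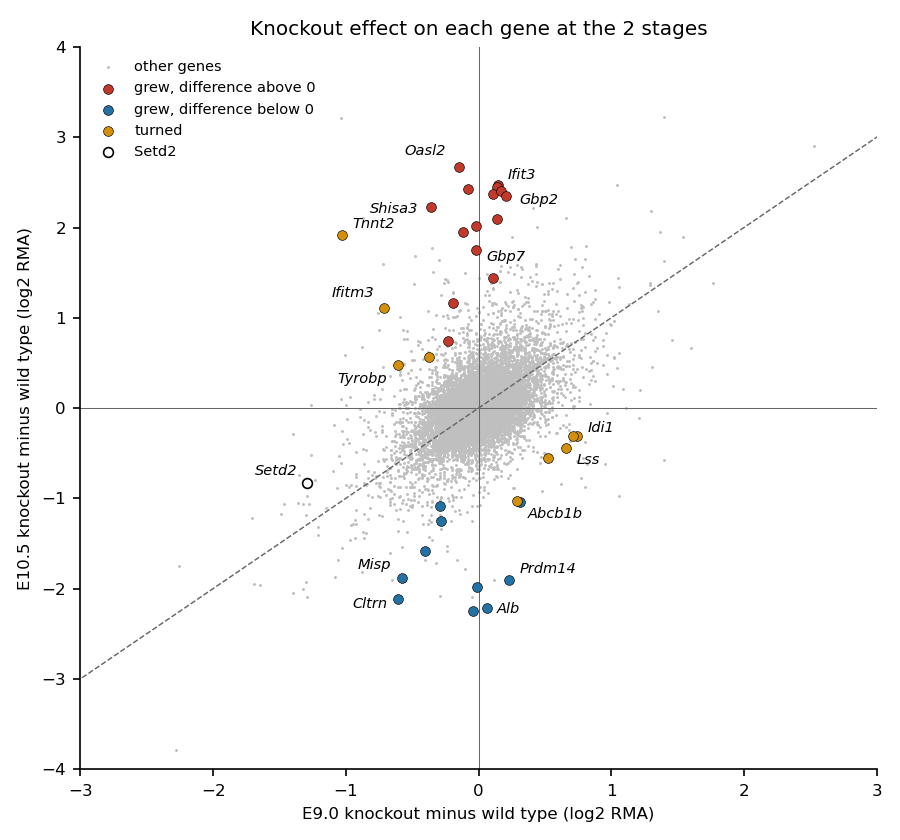
Knockout minus wild type on the log2 scale at E9.0 (horizontal) and at E10.5 (vertical) for each of 18193 genes, with the dashed line marking equal effects. The 15 red and 10 blue genes lie farther from 0 at E10.5 than at E9.0, and the 9 orange genes lie in the quadrants of opposite sign. Some red and blue genes also lie in those quadrants, without an unadjusted p under 0.05 by limma at both stages. Setd2 (open circle) is below 0 at both stages.

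These counts moved with single arrays. Of the 34 calls, 12 passed in each of the 12 fits that left out 1 array: Oasl2, Shisa3, Ifit1, Ccl12, Ifit3, Usp18, Ifi202b, Gbp3, Gbp7, Ccl3, Alb and Prdm14. The number of genes called was 12 without E10.5 wild type replicate 2, 17 without E9.0 knockout replicate 1, 20 without E9.0 knockout replicate 3 or E10.5 knockout replicate 1, and 21 without E9.0 knockout replicate 2 or E10.5 wild type replicate 3. It was 62 without E10.5 knockout replicate 3 and 90 without E10.5 knockout replicate 2. The number that turned ran from 0, without E10.5 wild type replicate 2, to 22, without E10.5 knockout replicate 2. With replicate 3 as a batch term 53 genes were called above 0 and 38 below. Within replicates 1 and 2 the numbers were 29 and 14. The sign of the difference was the same for all 34 within replicates 1 and 2, and also in replicate 3 alone, and 15 of them passed the threshold within replicates 1 and 2. The 34 were chosen on these same arrays, so a shared sign in a part of the arrays is no replication. Most were dim: 25 of the 34 had a mean below that of the median gene, and when the 9095 brighter genes were fitted alone with limma 0 passed, with 680 at an unadjusted p under 0.05. The 9 of the 34 tested there had adjusted p-values from 0.0771 to 0.0915.

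The effects at the 2 stages rest on separate arrays and so can be set side by side. The calls at the 2 stages are not independent, because they share each gene's estimate of spread, taken over all groups. A gene with a small estimated spread passes more easily at both stages. How far this raised the shares that passed at both stages was not tested. Of 100 genes higher in the knockout at E9.0 past the threshold (0.55% of genes), 88 were also above 0 at E10.5, against 47% of all genes, and 45 passed there, while 4.12% of all genes passed upward at E10.5. Their median effect was 0.72 at E9.0 and 0.43 at E10.5. Of 115 genes lower at E9.0 (0.632%), 109 were also below 0 at E10.5, against 52.6% of all genes, and 74 (64.3%) passed there, against 3.16% of all genes. Their medians were -0.77 and -0.61. Effects chosen for size at one stage tend to be smaller at the other, so these medians are no sign of fading. In the other direction, 625 of the 750 genes higher at E10.5 were above 0 at E9.0 (median 0.68 at E10.5 and 0.23 at E9.0), as were 48.2% of all genes. Of the 575 genes lower at E10.5, 507 were below 0 at E9.0 (median -0.65 and -0.29), against 51.5% of all genes. Across all genes the effects at the stages had a Pearson correlation of 0.47, where genes are points and not independent replicates. Of 120 genes called at both stages 119 had the same sign, and the exception was Tyrobp.

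Of the 19 genes with a difference above 0, 12 were interferon response genes. The list was chosen with earlier results of these data known, so its shares are descriptions only. Of 44 genes measured from this list, 12 (27.3%) had a difference called above 0 and none below, and 29 (65.9%) had an unadjusted p under 0.05, against 4.71% of all genes. The difference was above 0 for 39 of them, against 49.6% of all genes. The list's median effect was -0.018 at E9.0 and 0.86 at E10.5, while all genes had medians of -0.007 and -0.013. At E10.5 28 of the 44 (63.6%) were higher in the knockout past the threshold, against 4.12% of all genes. At E9.0 2 were higher and 1 was lower, against 0.55% and 0.632% of all genes. The median difference of the list was 0.71, between 0.67 and 0.78 without any 1 array. Replicates 1 and 2 gave 0.705, and replicate 3 alone gave 0.8. Of the 44 genes, 30 were dimmer than the median gene. Among the 12 called, only Rsad2 and Ifitm3 were brighter than it, with means of 7.84 and 8.54.

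**Figure D2:**
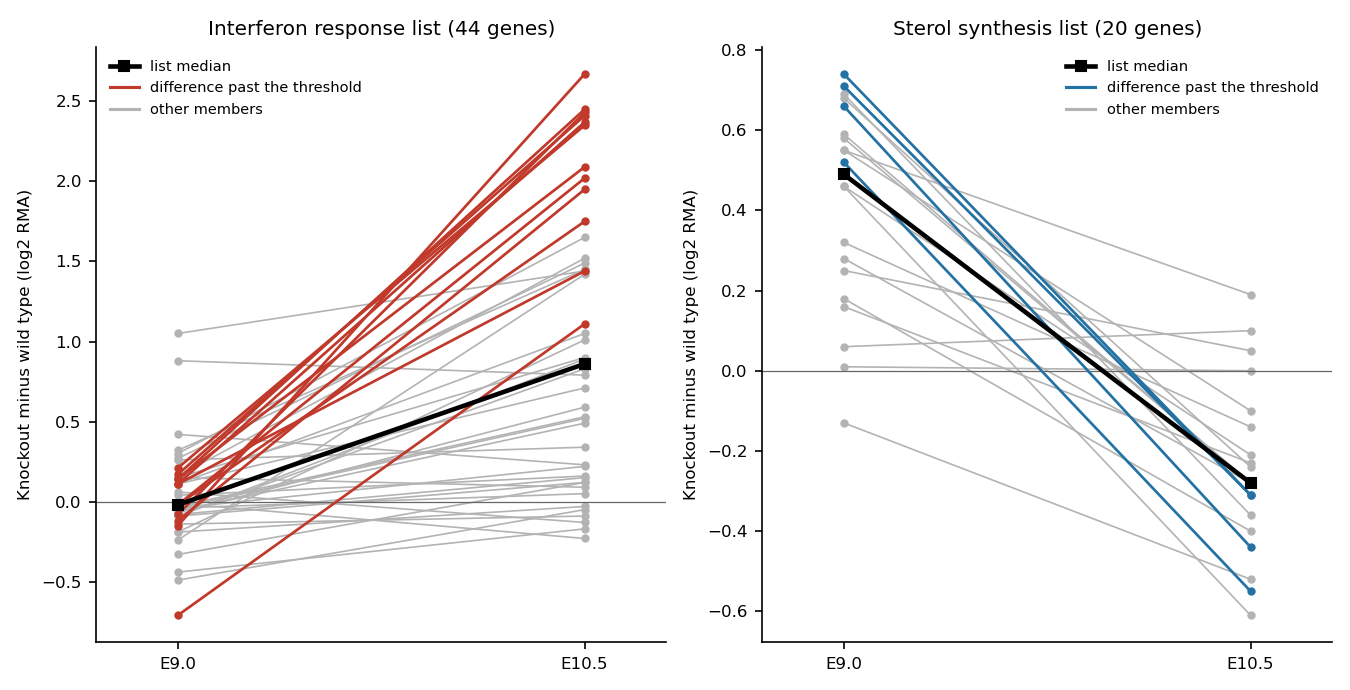
Knockout minus wild type on the log2 scale at E9.0 and E10.5 for each gene of the interferon response list (left, 44 genes) and the sterol synthesis list (right, 20 genes). Coloured lines are the 12 and 4 genes whose difference passed the threshold, and black squares are the list medians, which go from -0.018 to 0.86 on the left and from 0.488 to -0.28 on the right.

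Ifit3, an interferon-induced protein with tetratricopeptide repeats, had the smallest p of any gene. At E9.0 it read 4.85, 4.94 and 5.17 in the wild type and 5.18, 5.21 and 4.99 in the knockout. At E10.5 it read 5.58, 5.42 and 5.39 in the wild type and 8.10, 7.85 and 7.79 in the knockout. The genotypes overlapped at E9.0 and lay more than 2 log2 units apart at E10.5. The effect was 0.14 at E9.0 and 2.45 at E10.5 (5.46-fold), and the difference was 2.31 (SE 0.17; adjusted p = 8.87e-05). Ifit1, which binds RNA that lacks the host cap, went from -0.08 to 2.43, a difference of 2.51 (SE 0.25; adjusted p = 0.000996). Both promoters printed above hold 2 copies of the element.

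Oasl2, a relative of the oligoadenylate synthetases that sense double-stranded RNA, had the largest difference of this list. Its E9.0 values were 3.48, 3.27 and 3.15 in the wild type and 3.10, 3.04 and 3.30 in the knockout. At E10.5 they were 4.39, 3.53 and 3.30 in the wild type and 6.67, 5.98 and 6.59 in the knockout. One wild type array at E10.5 stood above the other two, and all 3 knockout arrays stood higher still. The difference was 2.83 (SE 0.35; adjusted p = 0.00467).

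A trio of GTPases of the guanylate-binding family, which attack pathogen membranes inside cells, were called. Gbp3 had an effect of 0.14 at E9.0 and 2.09 at E10.5 (difference 1.96, SE 0.21, adjusted p = 0.00198). Gbp7 went from -0.02 to 1.75 (difference 1.77, adjusted p = 0.00343) and Gbp2 from 0.21 to 2.35 (difference 2.15, SE 0.38, adjusted p = 0.0464). Gbp2 passed only in the fits without E10.5 knockout replicate 1 or 2, and without each of the other 10 arrays its call was lost. Usp18, the protease that removes the ubiquitin-like ISG15 and dampens interferon receptor signalling, had effects of 0.11 and 2.37 (difference 2.26, adjusted p = 0.00467). Ifi202b, a member of the family of interferon-inducible nucleic acid binding proteins, had effects of 0.17 and 2.41 (difference 2.24, adjusted p = 0.00343).

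Rsad2 is the antiviral enzyme viperin. It read 6.54, 6.81 and 6.97 in the wild type and 6.47, 6.99 and 6.80 in the knockout at E9.0, and 8.12, 7.78 and 7.83 against 10.55, 9.52 and 9.72 at E10.5. The wild type also rose with stage, by 1.14 on the log2 scale (adjusted p = 0.00381), and the knockout rose by 3.18 (adjusted p = 3.29e-06). Its difference was 2.04 (adjusted p = 0.0307), with 1.60 and 0.98 on its other probe sets. The call was lost without each of 6 arrays. These were E9.0 knockout 1 and 3, E9.0 wild type 2 and 3, and E10.5 wild type 2 and 3. Rtp4, a chaperone of receptor transport, had a difference of 2.07 (adjusted p = 0.0437) on its brightest probe set and 0.04 on its other. Parp14, an ADP-ribosyltransferase, likewise had 1.33 (adjusted p = 0.0183) on the one and 0.10 on the other. Probe sets of Rtp4 and Parp14 thus disagree. Tlr3, the endosomal sensor of double-stranded RNA, had effects of -0.23 and 0.74 (difference 0.97, adjusted p = 0.0363; 0.21 on its other probe set). Gbp7, Parp14 and Tlr3 were outside the naming rule and were chosen after their values were seen. Rtp4 passed only without E9.0 knockout 2, E9.0 wild type 3, E10.5 wild type 1 or E10.5 knockout 3, and Tlr3 only without E9.0 wild type 3, E10.5 knockout 2 or E10.5 knockout 3. The Parp14 call was lost without E9.0 wild type 2, E10.5 wild type 2 or E10.5 wild type 3.

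Ifitm3, a membrane protein that blocks virus entry and is abundant in early embryonic cells, turned. At E9.0 it was lower on every knockout array, with values of 6.46, 7.23 and 6.91 against 7.54, 7.45 and 7.75 in the wild type. At E10.5 it was higher on every knockout array, with 10.46, 10.12 and 10.65 against 9.30, 9.11 and 9.50. The effect was -0.71 (unadjusted only, adjusted p = 0.0986) and then 1.11 (adjusted p = 0.00419). Its difference of 1.82 (SE 0.27; adjusted p = 0.0178) was lost without E10.5 knockout 1 or E10.5 wild type 2. Its promoter has no match to the element.

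**Figure D3:**
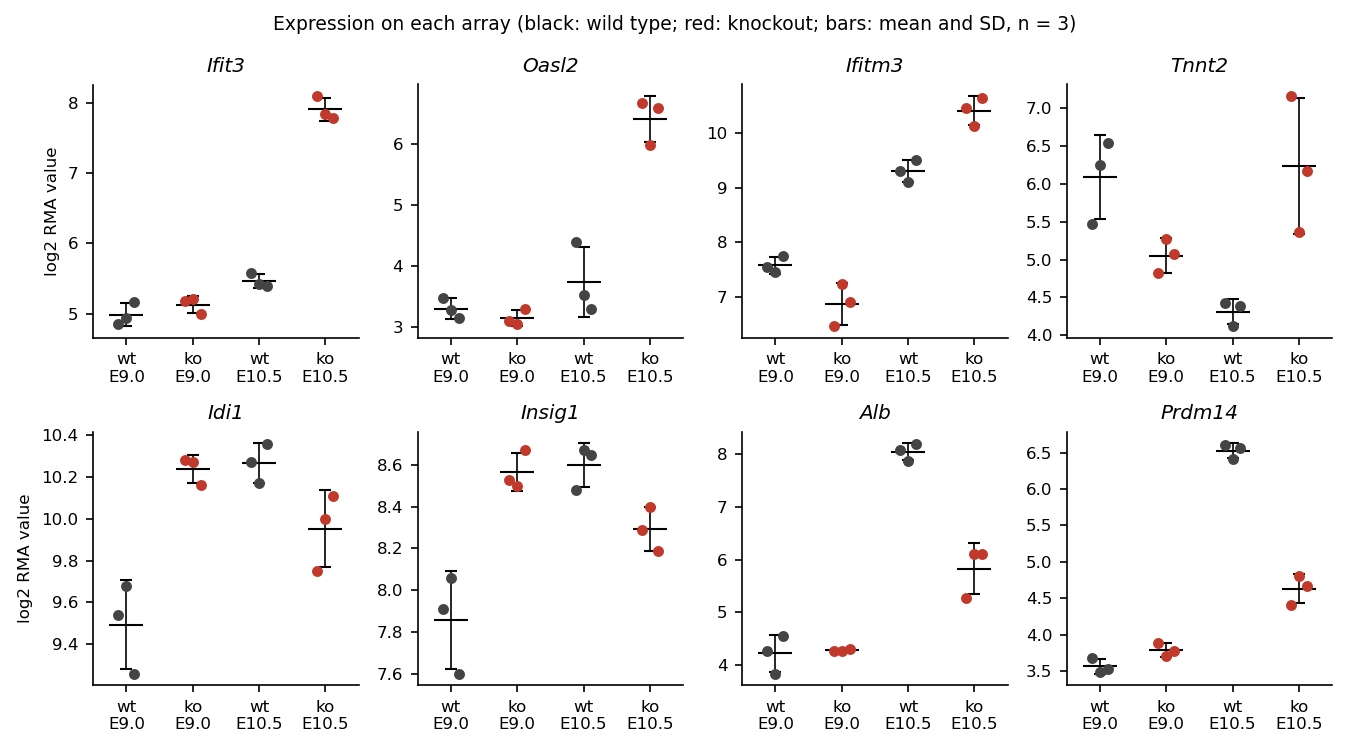
Log2 RMA value on each of the 12 arrays for 8 genes, wild type in black and knockout in red, with the mean and SD of 3 arrays. Vertical axes differ between panels. Ifit3 and Oasl2 separate the genotypes at E10.5 and not at E9.0, Ifitm3, Tnnt2, Idi1 and Insig1 change sign, and Alb and Prdm14 are low in all E9.0 arrays and higher in the wild type at E10.5.

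Some chemokine and myeloid genes also had differences above 0. Ccl3, a chemokine that attracts monocytes, read 3.50, 3.41 and 3.43 in the wild type and 3.16, 3.27 and 3.33 in the knockout at E9.0. At E10.5 it read 4.26, 4.09 and 4.21 against 5.30, 5.48 and 5.27. The genotypes did not overlap at either stage, and the difference was 1.36 (SE 0.13; adjusted p = 0.000996). Ccl12, another monocyte chemokine, had effects of 0.15 and 2.47 (difference 2.33, adjusted p = 0.00343). Of 27 chemokine and receptor genes measured, these 2 were called above 0, against 0.104% of all genes, and none below, and the list's median difference was 0.05. Shisa3, which holds Wnt and FGF receptors back in the endoplasmic reticulum, belongs to no list here and had effects of -0.36 and 2.23 (difference 2.59, adjusted p = 0.00987; 1.15 on its other probe set).

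Tyrobp, the signalling adaptor of myeloid surface receptors, was the gene whose effect passed at both stages in opposite directions. It read 5.01, 5.26 and 4.95 in the wild type and 4.31, 4.72 and 4.37 in the knockout at E9.0, and 6.88, 6.96 and 6.66 against 7.38, 7.32 and 7.24 at E10.5. Its effects were -0.61 (adjusted p = 0.0451) and 0.48 (adjusted p = 0.0417), and its difference was 1.09 (SE 0.18; adjusted p = 0.0363). Clec7a, the beta-glucan receptor of macrophages, had limma effects of -0.37 (adjusted p = 0.107) and 0.57 (adjusted p = 0.00466). Its difference was 0.94 (SE 0.14, adjusted p = 0.0193). Tyrobp passed only without E9.0 knockout 2, E9.0 wild type 3, E10.5 knockout 2 or E10.5 knockout 3. The Clec7a call was lost without E9.0 knockout 1 or 3, E10.5 knockout 1, or E10.5 wild type 1 or 2. Of 32 macrophage and myeloid genes 1 was called above 0 and 10 (31.2%) had an unadjusted p under 0.05 above 0 and 3 (9.38%) below 0. The shares over all genes were 0.104%, 4.71% and 3.59%. The list's mean level was 5.16 to 5.23 in the wild type and 5.00 to 5.16 in the knockout at E9.0, and 6.05 to 6.15 against 6.16 to 6.36 at E10.5, with 25 of the 32 genes below the median gene. RMA values have no 0, so absence of a marker cannot be read from them. The part of myeloid cells in the interferon and chemokine differences was not tested. In whole tissue, fewer cells of a type and less RNA per cell cannot be told apart.

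The sterol synthesis list had a median effect above 0 at E9.0 and below 0 at E10.5, and 4 of its genes turned. This list too was chosen with earlier results of these data known. Of 20 measured, 4 (20%) had a difference called below 0, against 0.0824% of all genes, and none above, 13 (65%) had an unadjusted p under 0.05 below 0, against 3.59% of all genes, and 19 had a difference below 0. The list's median effect was 0.488 at E9.0 and -0.28 at E10.5, and its median difference was -0.66, between -0.84 and -0.58 without any 1 array. Replicates 1 and 2 gave -0.788, and replicate 3 alone gave -0.63. None of the 20 was dimmer than the median gene. At E9.0 4 of the 20 were higher in the knockout past the threshold, against 0.55% of all genes, and at E10.5 3 were lower, against 3.16% of all genes.

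Idi1, the isomerase that makes dimethylallyl diphosphate early in the pathway, read 9.54, 9.68 and 9.26 in the wild type and 10.28, 10.27 and 10.16 in the knockout at E9.0. At E10.5 it read 10.27, 10.17 and 10.36 in the wild type and averaged 9.95 ± 0.18 (SD, n = 3) in the knockout, where the highest array was 10.11. Every knockout array was above the wild type at E9.0 and below it at E10.5, and the knockout at E9.0 was close to the wild type at E10.5. Its effects were 0.74 (adjusted p = 0.0196) and -0.31 (adjusted p = 0.17), and its difference was -1.06 (SE 0.18; adjusted p = 0.0363). Insig1, the brake on SREBP2, read 7.91, 8.06 and 7.60 in the wild type and 8.53, 8.50 and 8.67 in the knockout at E9.0. At E10.5 it read 8.48, 8.67 and 8.65 against 8.29, 8.40 and 8.19. Insig1 had limma effects of 0.71 (adjusted p = 0.0197) and -0.31 (adjusted p = 0.167), and a difference of -1.02 (adjusted p = 0.0363).

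Lss, which closes the lanosterol rings, had limma effects of 0.66 (adjusted p = 0.0291) and -0.44 (adjusted p = 0.0589). Its difference was -1.09 (adjusted p = 0.0363), with -0.47 and -1.13 on its other probe sets. Msmo1, which removes methyl groups from the sterol core, had effects of 0.52 (adjusted p = 0.0769) and -0.55 (adjusted p = 0.021). Its difference was -1.07 (adjusted p = 0.0367), with -0.18 on its other probe set. The wild type rose with stage for all 4 genes, by 0.71 (Lss), 1.47 (Msmo1), 0.77 (Idi1) and 0.74 (Insig1). In the knockout Msmo1 rose by 0.40 (adjusted p = 0.0391), Lss fell by 0.38 (adjusted p = 0.0473), and Idi1 (-0.28) and Insig1 (-0.27) did not pass. Each call held in only 3 of the 12 fits without 1 array: without E10.5 knockout 2 and E10.5 knockout 3 for Lss, Msmo1 and Idi1, together with E9.0 wild type 3 for Lss and E9.0 wild type 2 for Msmo1 and Idi1, and without E9.0 wild type 2, E9.0 wild type 3 and E10.5 knockout 2 for Insig1. Over all 12 of these limma fits, the highest adjusted p of each gene was between 0.114 and 0.118. Stard4, a sterol carrier, had the largest value above 0 in the list, at 0.04. Fatty acid synthesis genes, which share SREBP factors, had 3 of 16 (18.8%) with an unadjusted p under 0.05 below 0, against 3.59% of all genes, none called, and a median difference of -0.30.

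All 15 genes with a difference below 0 rose from E9.0 to E10.5 in the wild type past the threshold, against 13.4% of all genes, while 7 of them rose and 1 fell in the knockout, against 14.4% and 9.17% of all genes. Of the 19 genes with a difference above 0, all rose in the knockout, 11 rose in the wild type and 1, Tnnt2, fell there. This is the same difference read along the other axis, with the same arrays. Alb, the main plasma protein, read 4.27, 3.84 and 4.55 in the wild type and 4.27, 4.26 and 4.30 in the knockout at E9.0. At E10.5 it read 8.07, 7.87 and 8.19 against 5.27, 6.11 and 6.10. The genotypes overlapped at E9.0 and lay apart at E10.5, where the knockout was 4.65-fold lower. Alb thus rose by 3.82 in the wild type and by 1.55 in the knockout, a difference of -2.27 (SE 0.31; adjusted p = 0.00987).

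Prdm14, a regulator of pluripotency and of germ cell formation, had the smallest p among these. It read 3.67, 3.49 and 3.52 in the wild type and 3.88, 3.70 and 3.78 in the knockout at E9.0. At E10.5 it read 6.61, 6.41 and 6.56 against 4.41, 4.81 and 4.67. The knockout was above the wild type on every array at E9.0 and below it on every array at E10.5. Its effect went from 0.23 (adjusted p = 0.476) to -1.90, a difference of -2.12 (SE 0.16; adjusted p = 8.87e-05). Ppbp, a platelet chemokine, read 3.29, 3.77 and 3.56 against 3.59, 3.48 and 3.51 at E9.0, and 8.89, 8.66 and 8.75 in the wild type against 6.19, 7.30 and 6.86 in the knockout at E10.5. Both genotypes raised it, by 5.23 and 3.26, and the difference was -1.97 (adjusted p = 0.0244). The Ppbp call held only without E9.0 wild type 2 or 3 or any 1 of the E10.5 knockout arrays.

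**Figure D4:**
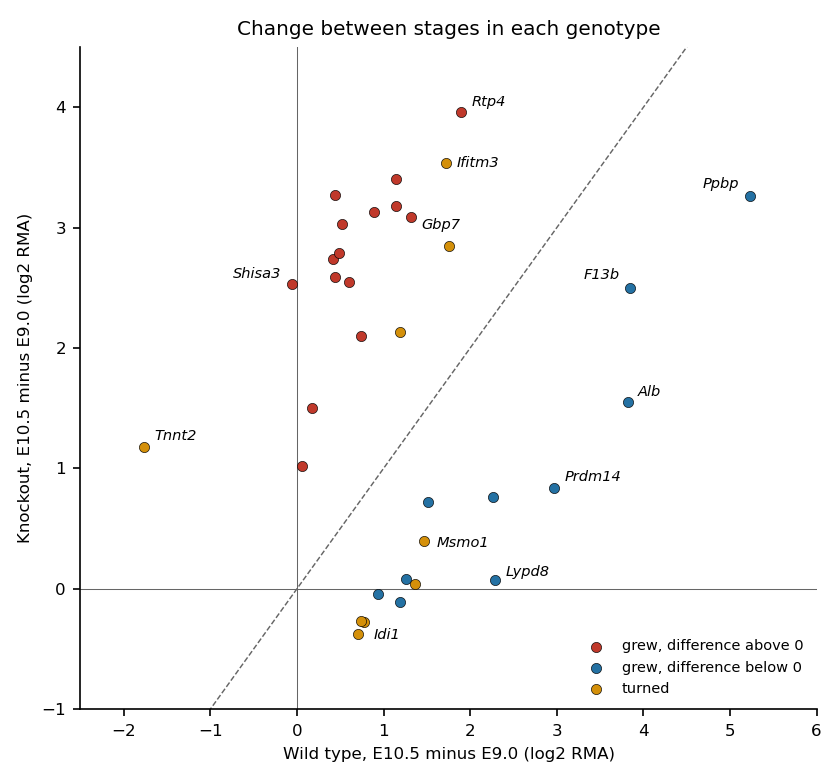
E10.5 minus E9.0 on the log2 scale in the wild type (horizontal) and the knockout (vertical) for the 34 genes whose knockout effect differed between stages, with the dashed line marking equal change. The 15 genes below the line all rose in the wild type, Ppbp by 5.23 and Alb by 3.82, and Tnnt2 lies to the left of 0 because it fell in the wild type.

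The other 7 genes whose effect grew below 0 were lower in the knockout at E10.5. Lypd8, a membrane-anchored protein of absorptive epithelium that binds bacteria, read 6.25, 6.64 and 7.03 in the wild type and 3.98, 4.66 and 4.52 in the knockout at E10.5, with effects of -0.04 and -2.25 (difference -2.21, adjusted p = 0.0117). Without E10.5 wild type 2 its adjusted p was 0.0518. Cltrn, collectrin, the partner of amino acid transporters at the brush border, had effects of -0.61 and -2.12 (difference -1.50, adjusted p = 0.0387). F13b, the carrier subunit of coagulation factor XIII, had effects of 0.31 and -1.04 (difference -1.35, adjusted p = 0.0307), and C2, the complement protease, -0.40 and -1.58 (difference -1.18, adjusted p = 0.0434). Misp, which positions the mitotic spindle through cortical actin, had a difference of -1.30 (adjusted p = 0.0218). Naip6, of the NAIP family of inflammasome receptors, had -0.97 and Fuom, the fucose mutarotase, -0.79 (both adjusted p = 0.0363); these 2 were outside the naming rule and were chosen after their values were seen. Cltrn passed only without E9.0 knockout 3 or E10.5 knockout 3. The calls of F13b, Misp, C2, Naip6 and Fuom held in 4, 5, 3, 4 and 3 of the 12 fits that left out 1 array, the fits without E10.5 knockout 2 and without E10.5 knockout 3 among them for each of these 5.

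Alb and F13b belong to the liver-type plasma protein list and Cltrn to the brush border list. Of 41 liver-type plasma protein genes 2 (4.88%) were called below 0 and none above, and 10 (24.4%) had an unadjusted p under 0.05 below 0, where the shares over all genes were 0.0824% and 3.59%. Their median difference was -0.13, between -0.25 and -0.04 without any 1 array, and the sign depended on the replicate: replicates 1 and 2 gave -0.265 and replicate 3 alone 0.1. Of 24 cubilin-megalin uptake and brush border genes 1 was called below 0, against 0.0824% of all genes, with a median of -0.10, which was 0.165 in replicate 3 alone. Afp, the dominant plasma protein of this tissue, had effects too small to separate the genotypes, with a difference of -0.05, and its group means lay between 13.79 and 14.17. Tmed6, a protein of the secretory pathway, was lower in the knockout at both stages (-2.28 and -3.79), and the difference of -1.51 (SE 0.69) did not pass (adjusted p = 0.593).

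Abcb1b, a P-glycoprotein efflux pump, turned in the other direction from Ifitm3. It read 6.57 ± 0.14 (SD, n = 3) in the wild type and 6.86 ± 0.17 in the knockout at E9.0, where the genotypes overlapped, and 7.84, 7.92 and 8.02 against 7.16, 6.80 and 6.73 at E10.5. Its limma effects were 0.29 at E9.0 (unadjusted p = 0.0478, adjusted p = 0.415) and -1.03 at E10.5 (adjusted p = 0.000619). The E9.0 side of the turn thus passed only unadjusted. The difference was -1.32 (SE 0.18, adjusted p = 0.0123). On its other probe set the difference was -0.03, and without E10.5 wild type 2 the adjusted p was 0.0525.

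A single heart muscle gene turned, with limma effects of -1.03 at E9.0 (adjusted p = 0.235) and 1.92 at E10.5 (adjusted p = 0.00728). Tnnt2, cardiac troponin T, read 5.47, 6.25 and 6.54 in the wild type and 4.82, 5.27 and 5.07 in the knockout at E9.0, and 4.43, 4.12 and 4.39 against 7.16, 5.37 and 6.17 at E10.5. It fell with stage in the wild type by 1.77, as 8.86% of genes fell past the threshold, and rose in the knockout by 1.18, a difference of 2.95 (SE 0.51; adjusted p = 0.0436; 2.69 and 0.25 on its other probe sets). The call held only without E9.0 wild type 1, E10.5 knockout 1 or E10.5 knockout 2. Myl7, the atrial myosin light chain, had the largest difference of all genes, 4.25, but with an SE of 0.80 and an adjusted p of 0.0514. It read 5.32, 6.95 and 8.05 on the wild type arrays at E9.0 and 9.33, 7.52 and 8.07 on the knockout arrays at E10.5, so it varied among pools of 1 group. Of 24 heart genes 1 was called above 0, against 0.104% of all genes, 9 (37.5%) had an unadjusted p under 0.05 above 0, against 4.71%, and the median effect was -0.118 at E9.0 and 0.32 at E10.5. Heart is no part of the yolk sac, and 20 of the 24 genes were below the median gene. The list's mean level was 5.05 to 5.52 in the wild type and 5.04 to 5.17 in the knockout at E9.0, and 5.01 to 5.06 against 5.52 to 5.95 at E10.5. How much heart tissue the pools held was not tested.

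No effect that faded passed the threshold. Of the 374 genes that faded at an unadjusted p under 0.05, 48 had been called at E9.0. The 6 of those with the lowest adjusted p for the difference, clone-like symbols passed over, are given here and were chosen after their values were seen. Sqle, the squalene epoxidase of sterol synthesis, had effects of 0.68 and -0.24 (difference -0.92, adjusted p = 0.0514). Sla, an adaptor that dampens antigen receptor signalling, had a difference of 1.02 (adjusted p = 0.0557), with an effect of 0.03 at E10.5 after a call below 0 at E9.0. Bcor, a corepressor of transcription, had effects of 0.61 and -0.22 (difference -0.83, adjusted p = 0.0751), and Tff3, a secreted trefoil peptide of epithelia, 1.21 and -0.11 (difference -1.31, adjusted p = 0.0974). Adamts18, a secreted metalloprotease, had -0.59 and 0.20 (difference 0.80, adjusted p = 0.104), and Gsta3, a glutathione transferase, 0.97 and -0.05 (difference -1.02, adjusted p = 0.113). The p53 target list had a median effect of 0.247 at E9.0 and 0.29 at E10.5, with no gene called and a median difference of 0.02.

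Vessel and oxygen-response lists had medians above 0 with no gene called. Of 43 endothelial genes 35 had a difference above 0, against 49.6% of all genes, and 11 (25.6%) had an unadjusted p under 0.05 above 0, against 4.71%, with none below. Their median effects were 0.067 at E9.0 and 0.39 at E10.5. Their median difference was 0.33, between 0.26 and 0.51 without any 1 array. Adgrl4, an adhesion receptor of endothelium, had the largest difference there, 1.15 (adjusted p = 0.276). Kdr (0.33, adjusted p = 0.877), Pecam1 (0.50, adjusted p = 0.778) and Vegfa (0.24, adjusted p = 0.774) did not pass. Of 28 hypoxia response genes 8 (28.6%, against 4.71% of all genes) had an unadjusted p under 0.05 above 0 and none below, with median effects of 0.072 and 0.467, and Ddit4, an inhibitor of mTORC1, had a difference of 1.96 (adjusted p = 0.0707). Ankrd1, a target of YAP and TEAD, was higher in the knockout at both stages (1.40 and 3.22; difference 1.82, adjusted p = 0.0903).

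Of 31 primitive red blood cell genes none was called. Of these, 25 had a difference below 0, against 50.2% of all genes, and 6 (19.4%) had an unadjusted p under 0.05 below 0, against 3.59%. The median effect was 0.063 at E9.0 and -0.297 at E10.5, and the median difference of -0.41 was -0.21 without E10.5 knockout 1. Rhag, the Rh-associated glycoprotein of the red cell membrane, had the largest difference, -1.08 (adjusted p = 0.502), and read 6.27, 7.81 and 7.17 on the E10.5 knockout arrays against 8.38, 8.11 and 7.97 in the wild type. The list's mean level was 8.16 to 8.91 in the E10.5 knockout and 8.79 to 8.98 in the E10.5 wild type. Hba-x and Hbb-bh1, globins of embryonic red cells at the top of the array's range, had differences of -0.19 and -0.26.

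**Figure D5:**
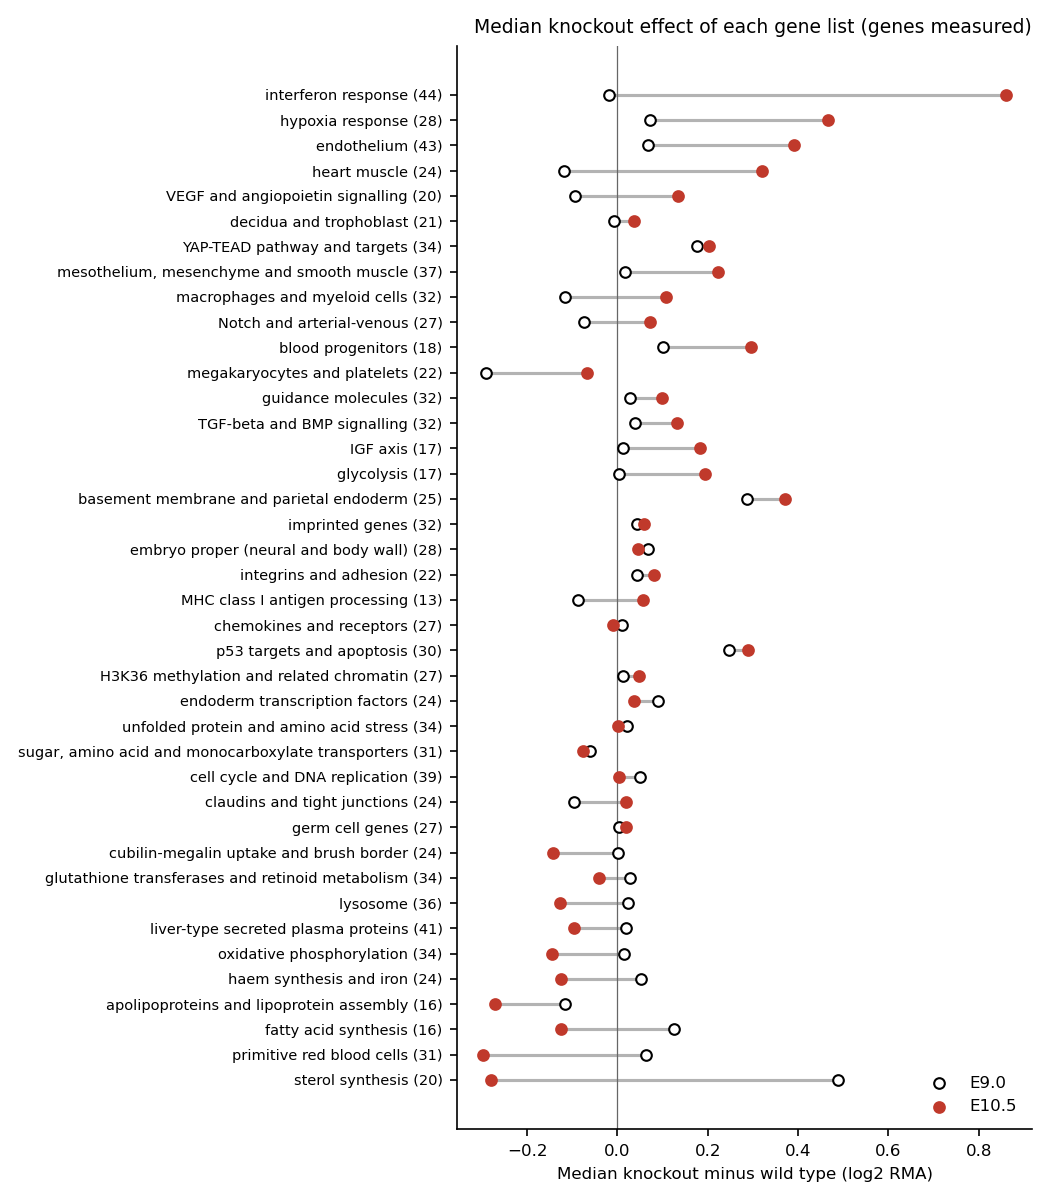
Median knockout minus wild type on the log2 scale of each of 40 gene lists at E9.0 (open) and E10.5 (red), ordered by the median difference, with the number of genes measured. The interferon list moves from -0.018 to 0.86 and the sterol list from 0.488 to -0.28. Most other lists move by less than 0.4.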

How the data were processed

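Expression was measured in 12 samples on Affymetrix Mouse Genome 430 2.0 arrays. The deposited values are log2 expression values, and the submitters' processing notes name RMA without a version. RMA sets all arrays to 1 distribution, so a change shared by all transcripts would be removed, and dim probe sets have compressed changes. The table held 45101 probe sets (2.03 to 14.49; array medians 5.27 to 5.34). Arrays have no read depth; precision is limited by their number. After 64 controls were left out, 34945 probe sets carried 1 symbol in the platform annotation, 932 several and 9160 none. The probe set with the highest mean stood for each of 18193 genes, 9010 of which had more than 1.

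Groups came from the sample titles. One mean per group was fitted with limma 3.58.1 (R 4.3.3; 8 residual and 4.56 prior degrees of freedom), two-sided, with Benjamini-Hochberg adjustment over all genes of a contrast. Fold values are 2 to the power of the log2 change. The fit was tested on simulated data. The 40 gene lists (1115 genes, 1040 measured) were described by counts and medians only, and some share members. The members and lists were chosen with earlier results of these data known. Named genes are the 12 largest called differences in each direction, all that turned, called list members (all of 5 or fewer, otherwise the 4 with the smallest p), the member with the largest difference of a list without a call, and Setd2, Vegfa, Kdr, Pecam1, Alb, Afp, Hba-x, Hbb-bh1, Ankrd1, Myl7, Tmed6, Ifit3 and Insig1. Clone-like symbols were passed over. Alternatives covered the replicate block, the inferred batch, single arrays, normalisation, dim genes, probe set choice, moderation, array weights and the threshold. The scanner files were not used here.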

Additional observations from a re-analysis of the deposited data

Results flagged for a closer look

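The knockout effect differed between E9.0 and E10.5 by the test of the difference itself for 34 genes (limma, adjusted over 18193 genes), and each value is the E10.5 effect minus the E9.0 effect on the log2 scale. Above 0 lay Tnnt2 (2.95), Oasl2 (2.83), Shisa3 (2.59), Ifit1 (2.51), Ccl12 (2.33), Ifit3 (2.31), Usp18 (2.26), Ifi202b (2.24), Gbp2 (2.15), Rtp4 (2.07), Rsad2 (2.04), Gbp3 (1.96), Ifitm3 (1.82), Gbp7 (1.77), Ccl3 (1.36), Parp14 (1.33), Tyrobp (1.09), Tlr3 (0.97) and Clec7a (0.94). Below 0 lay Alb (-2.27), Lypd8 (-2.21), Prdm14 (-2.12), Ppbp (-1.97), Cltrn (-1.50), F13b (-1.35), Abcb1b (-1.32), Misp (-1.30), C2 (-1.18), Lss (-1.09), Msmo1 (-1.07), Idi1 (-1.06), Insig1 (-1.02), Naip6 (-0.97) and Fuom (-0.79). The cause of these differences was not tested.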

How the results depend on the processing

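The counts of calls depended on the processing. None of the 34 called genes changed the sign of its difference under any alternative in which it was tested. They were chosen for their differences on these same arrays, so stable signs were likely beforehand. Called above and below 0 were 19 and 15 genes, with 25 grown, 9 turned and 0 faded. Replicate numbers are shared by the genotypes, and the labels do not say whether they pair the arrays. Same-numbered arrays deviated from their group means with correlations of 0.03, 0.23 and 0.24 at E9.0 and 0.26, 0.07 and 0.40 at E10.5. A replicate block gave 66 and 49 (77 grown, 37 turned, 1 faded), and 32 of the 34 calls held. The batch term gave 53 and 38 (56, 30 and 5), and array quality weights gave 83 and 65 (86, 49 and 13). Replicates 1 and 2 alone gave 29 above 0, with 1 faded. Median centring gave 29 and 24, with 15 turned and 3 faded. The mean of all probe sets and the trended robust fit each had 1 faded gene, and the most variable probe set gave 3 turned. Among genes brighter than the median gene all 4 counts were 0; they include 9 of the 34 genes. At a threshold of 0.01 there were 10 above and 2 below, 12 grown and 0 turned. Leaving out each array in turn gave 10 to 60 above, 2 to 30 below, 12 to 68 grown, 0 to 22 turned and 0 to 1 faded; fewer arrays leave fewer degrees of freedom. RMA gives no signal over background, which limits what can be said of the 25 dim genes.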

Other observations

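Several lists not described above held genes with values that a reader might follow. Of 22 megakaryocyte and platelet genes, Ppbp was called below 0, while 18 of the 22 had a difference above 0, with median effects of -0.29 at E9.0 and -0.068 at E10.5. Their median difference was -0.043 within replicates 1 and 2 and 0.515 in replicate 3 alone. All but 3 of the 34 oxidative phosphorylation genes had a difference below 0, with a median of -0.14, and 0 had an unadjusted p under 0.05 by limma. Igfbp3, a carrier of insulin-like growth factors, had the largest value of the 17 IGF axis genes, 1.38 (adjusted p = 0.123). Lpl, the lipase of plasma lipoproteins, had effects of -0.58 and 0.50 (difference 1.08, adjusted p = 0.0514), while 14 of the 16 apolipoprotein and lipoprotein assembly genes had a difference below 0. Of 27 germ cell genes 5 (18.5%) had an unadjusted p under 0.05 below 0, against 3.59% of all genes, led by Slc25a31, the germ cell ADP/ATP carrier (-1.19, adjusted p = 0.169). The 39 cell cycle genes had a median difference of -0.03.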
